A study of Mus musculus with 12 samples.

Results

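Tbx21 (which encodes T-bet), Zeb2 and the effector-lymphocyte transcription factors related to them were followed through 4 kinds of sorted mouse B cells. The set was named gene by gene and holds 8 genes in 4 pairs of relatives: Tbx21 and Eomes, Zeb2 and Zeb1, Runx3 and Runx1, and Id2 and Id3. All 8 were measured among 18193 genes, by 24 of the 34945 probe sets that carry a single gene symbol. The cells came from female C57BL/6 mice, a common inbred strain, and went from the organ to the flow cytometer with no culture step. Age-associated B cells (old ABC) and follicular B cells (old FO) were taken from the spleen and B1 cells (old B1) from the peritoneal cavity of mice older than 15 months. A further B1 group (young B1) came from the peritoneal cavity of mice of 8 weeks, and the titles call both B1 groups B1a. No transgene, deletion or treatment is named for any group, there are no young spleen cells, and each group holds 3 arrays. Whether those 3 come from different mice, from pools or from repeated sorting is not stated in the labels, and the p-values therefore measure only the spread between these samples, which may be technical.

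T-bet and Eomes are T-box activators that direct type 1 effector programmes in T cells and natural killer (NK) cells, and T-bet also marks a CD11c-positive memory-like B cell that gathers with age, infection and autoimmunity. Zeb1 and Zeb2 are zinc finger repressors that bind E-boxes. Zeb2 acts downstream of T-bet in killer T cells and NK cells and is needed for CD11c-positive B cells, while Zeb1 favours memory T cells. Runx1 and Runx3 bind DNA with their partner Cbfb, and Runx3 cooperates with T-bet at effector genes. Id2 and Id3 have no DNA-binding region and act by holding E proteins, the basic helix-loop-helix factors that drive B and T cell development, away from DNA.

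The starts of 4 members are shown because these genes were called between ABC and FO, Tbx21, Zeb2 and Id2 higher in ABC and Id3 lower. Each line gives the 250 bases before the most upstream RefSeq start of the gene in GRCm38.p6, 5′ to 3′ on the strand of the gene, with E-boxes in capitals. Tbx21 lies at chr11:97115332-97115581 (minus strand), Zeb2 at chr2:45117443-45117692 (minus strand), Id2 at chr12:25096093-25096342 (minus strand) and Id3 at chr4:136143572-136143821 (plus strand). The table of starts matched 7 of the 8 members. Zeb1, also called lower in ABC than in FO, had no match and is named only.
Tbx21 promoter: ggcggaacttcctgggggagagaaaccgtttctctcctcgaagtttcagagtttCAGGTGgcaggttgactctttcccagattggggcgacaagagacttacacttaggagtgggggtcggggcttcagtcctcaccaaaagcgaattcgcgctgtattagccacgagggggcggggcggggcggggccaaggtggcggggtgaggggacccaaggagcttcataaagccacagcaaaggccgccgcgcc
Zeb2 promoter: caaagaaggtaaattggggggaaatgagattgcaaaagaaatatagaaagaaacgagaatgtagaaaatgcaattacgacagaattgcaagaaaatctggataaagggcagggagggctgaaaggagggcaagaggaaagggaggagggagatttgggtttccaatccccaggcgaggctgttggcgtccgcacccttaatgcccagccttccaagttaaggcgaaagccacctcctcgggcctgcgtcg
Id2 promoter: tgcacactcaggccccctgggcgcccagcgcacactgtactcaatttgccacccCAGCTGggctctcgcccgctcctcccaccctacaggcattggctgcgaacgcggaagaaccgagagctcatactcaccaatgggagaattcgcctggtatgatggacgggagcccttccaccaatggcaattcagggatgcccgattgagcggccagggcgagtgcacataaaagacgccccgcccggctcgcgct
Id3 promoter: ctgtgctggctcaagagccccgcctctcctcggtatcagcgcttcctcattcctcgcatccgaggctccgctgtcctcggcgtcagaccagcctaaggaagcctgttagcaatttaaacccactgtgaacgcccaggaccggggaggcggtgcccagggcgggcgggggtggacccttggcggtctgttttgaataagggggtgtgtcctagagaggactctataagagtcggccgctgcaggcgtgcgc

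These windows were searched on both strands for 5 motifs. The E-box CANNTG reads the same on both strands. The ZEB type of E-box, CACCTG or CAGGTG, is a subset of it. The others were the RUNX site TGTGGT, the T-box core site GGTGTGA, which can share bases with TGTGGT, and the STAT site TTCNNNGAA. The Tbx21 window held 1 E-box, and it was of the ZEB type, starting 196 bases before the gene's start. The Id2 window held 1 E-box of another type, also 196 bases before the start, and the Zeb2 and Id3 windows held none of the 5 motifs. The table holds 4 start windows for Zeb2, 2 for Runx3 and 2 for Runx1, and only the most upstream of each is reported here. Of 32851 windows of this length in the table, 66.2% held an E-box, 17.2% the ZEB type, 14.0% the RUNX site, 3.33% the T-box core site and 7.02% the STAT site. Of the windows not shown, that of Runx3 held 1 ZEB-type E-box and 2 RUNX sites, that of Runx1 held 3 E-boxes, 1 of them of the ZEB type, and that of Eomes held none of the 5 motifs. These are matches of letters, and the arrays say nothing about binding.

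Values below are intensities on the linear scale, arrays 1, 2 and 3 of a group in that order, and differences are log2 differences of group means ± the standard error of the limma fit, with n = 3 arrays per group. A gene was called where limma's Benjamini-Hochberg adjusted p, over all 18193 genes of a comparison, was under 0.05. Counts from gene lists stand beside the shares of all genes. These were 7.12% higher and 2.84% lower in ABC against FO, and 7.40% and 5.43% in ABC against old B1. They were 8.40% and 8.02% in old B1 against FO, and 0.291% in either direction in old against young B1. All these shares are at the adjusted threshold, and shares of all genes at an unadjusted p were not counted. The brightness of different probe sets is not on a common scale, so the level of one gene does not show whether it is above or below that of another. By the 75th percentile of intensity, 10 arrays ran from 400.1 to 412, while replicate 3 of old B1 reached 346 and replicate 2 of old FO reached 378. Both of these arrays stand apart, and results that change without them are given both ways. Against old FO, 9 of 9 B1 markers were higher in old B1. In old ABC, 5 of 6 follicular markers were lower than in old FO and 6 of 7 ABC markers higher. Some markers, such as Itgax, may have been used in the sort, and the lists were chosen with earlier results of these data known. These counts therefore do not test the sort labels, and they do not separate ABC from B1. Against FO, 7 of the 9 B1 markers were also higher in ABC (1 lower). Old B1 had 4 of the 7 ABC markers higher than FO (2 lower) and 5 of the 6 follicular markers lower. Directly against old B1, ABC had 4 of 7 ABC markers higher and 0 lower, and 4 of 9 B1 markers lower and 1 higher. Limma called 0 of 12 B cell identity genes between ABC and FO (2 at an unadjusted p under 0.05). Over 28 alternative analyses, 0 to 2 were higher and 0 to 1 lower. Between ABC and old B1, 4 of the 12 were higher in ABC.

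Genes of other cells also differed between the sorts. Of 16 macrophage and monocyte genes, 12 were higher in old ABC than in old FO and 14 were higher in old B1 than in old FO, and their summed intensity was 16213 to 18159 in ABC, 1192 to 3122 in FO, 12451 to 32982 in old B1 and 16579 to 28524 in young B1. The sum of 9 NK cell genes was 1797 to 4047 in ABC, 986 to 1717 in FO, 432 to 2301 in old B1 and 1013 to 1329 in young B1, with 2 of the 9 higher in ABC than in FO: Gzma, a granzyme (4.22 ± 0.84), and Ncr1, an activating NK receptor (1.36 ± 0.28). The sum of 12 neutrophil genes was 20909 to 35691 in ABC and 504 to 10073 in FO, that of 12 T cell genes 3004 to 3699 and 1327 to 2673, that of 10 dendritic cell genes 5132 to 5893 and 819 to 1281, that of 9 mast cell genes 521 to 1375 and 238 to 260, and that of 9 plasma cell genes 23212 to 27200 and 13704 to 23071. Against FO, 7 of the neutrophil, 1 of the T cell, 4 of the dendritic cell, 3 of the mast cell and 6 of the plasma cell genes were higher in ABC and none of them lower. Over 28 alternative analyses, 1 to 7 NK, 7 to 14 macrophage and monocyte and 6 to 9 neutrophil genes were higher in ABC than in FO. The ranges were 1 to 3 for T cell, 2 to 8 for dendritic cell, 2 to 6 for mast cell and 2 to 7 for plasma cell genes. Markers below the 25th percentile of the array on all 3 arrays of a group numbered 0 of 16 for macrophages in every group. For NK cells they were 0 of 9 in ABC and 1 of 9 in each other group, and for neutrophils 1 of 12 in ABC and in FO and 4 of 12 in each B1 group. The part of such cells in the members' differences was not tested, and in sorted bulk RNA a change in the number of cells of a type cannot be told apart from a change in RNA per cell.

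Of the 8 members, 5 were called between old ABC and old FO, where 9.96% of all genes were called. Tbx21, Zeb2 and Id2 were higher in ABC, where 7.12% of all genes were called higher, and Zeb1 and Id3 were lower, where 2.84% of all genes were. Between old ABC and old B1, 6 members were called against 12.8% of all genes. Tbx21, Zeb2, Runx3, Runx1 and Id2 were higher in ABC (7.40% of all genes) and Zeb1 was lower (5.43% of all genes). With only those 6 arrays in the fit, Tbx21 alone of the 8 was called, and 1062 of all 18193 genes. Limma's adjusted p was then 0.0532 for Zeb2, 0.0568 for Runx3, 0.0665 for Runx1, 0.0839 for Id2 and 0.0940 for Zeb1. Between old B1 and old FO, 5 members were called against 16.4% of all genes, with Zeb2 higher in B1 (8.40% of all genes) and Tbx21, Runx3, Runx1 and Id3 lower (8.02% of all genes). Between old and young B1 cells, limma called 0 of the 8 members against 0.291% of all genes. There 3 members, Tbx21, Runx3 and Runx1, had an unadjusted limma p under 0.05, Runx1 at 0.0497. The share of all genes with such a p was not counted, and 0.291% is not that share. Without both arrays that stand apart, 5, 6, 6 and 2 members were called in these 4 comparisons, and with limma array weights 3 were called in the last. More of all 18193 genes were called as well. Without those arrays they numbered 2964, 3189, 4008 and 208, where all arrays gave 1812, 2334, 2988 and 53. With array weights 316 were called in the last comparison. The comparisons with ABC share the ABC arrays, and those with FO or old B1 share theirs, so they are not independent of each other.

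**Figure D1:**
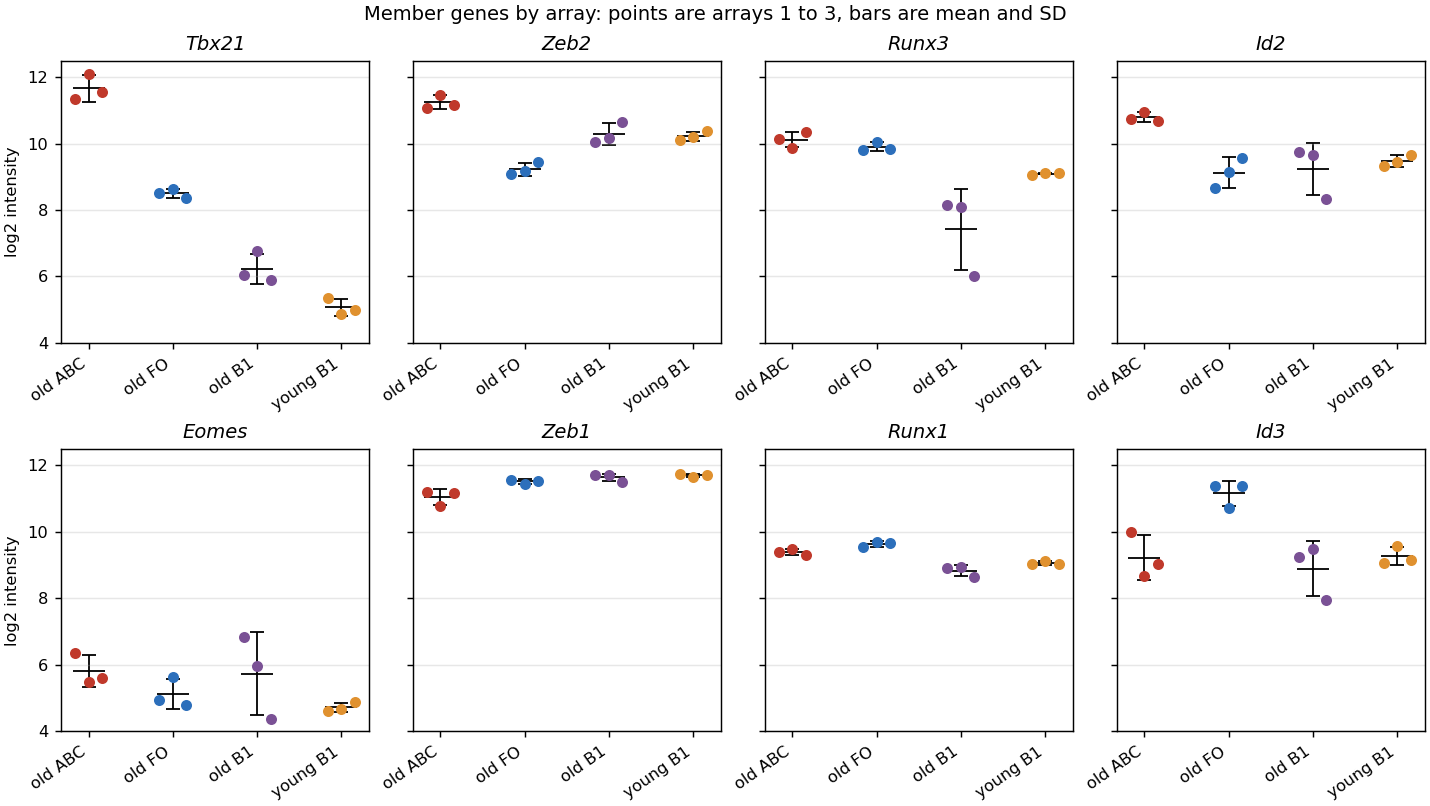
Log2 intensity (vertical axis) of the 8 members on each of the 12 arrays, by group, with the group mean and SD as bars. Tbx21 steps down through the 4 groups from 11.67 in old ABC to 5.07 in young B1, and old B1 replicate 3 is the low point for Runx3, Id2, Id3 and Eomes.

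**Figure D2:**
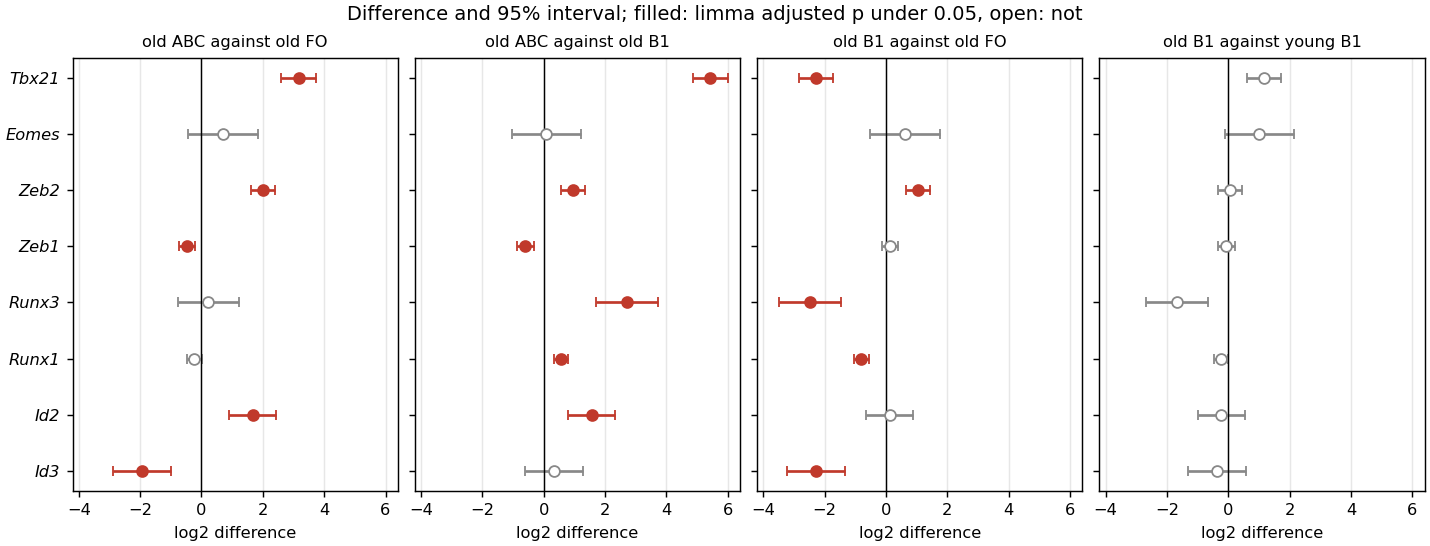
Log2 difference (horizontal axis) of each member in the 4 comparisons, with its 95% interval. Filled red points passed the adjusted p of 0.05, which 5, 6, 5 and 0 of the 8 members did from left to right.

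T-bet was the member that separated the groups most widely. Tbx21 intensity was 2604, 4405 and 2988 in old ABC and 368, 396 and 327 in old FO. It was 66.1, 108 and 59.3 in old B1 and 40.6, 29.1 and 31.8 in young B1. No 2 of these groups overlapped, and the order was ABC, FO, old B1 and young B1, with mean log2 levels of 11.67 ± 0.39, 8.50 ± 0.14, 6.23 ± 0.46 and 5.07 ± 0.25 (SD, n = 3). Tbx21 was 8.96-fold higher in ABC than in FO (3.16 ± 0.25, limma adjusted p = 2.67e-05), where it ranked 143rd from the top among 18193 genes. It was 43.3-fold higher in ABC than in old B1 (5.44 ± 0.25, limma adjusted p = 9.51e-07) and ranked 12th there. Follicular cells in turn held more Tbx21 than old B1 cells, which fell by 2.27 ± 0.25 against them (limma adjusted p = 0.000142). The spleen and the peritoneal cavity cannot be told apart from the cell type in either comparison with B1. The macrophage, NK and neutrophil sums were also higher on every ABC array than on every FO array, and their part in the Tbx21 difference was not tested.

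Eomes, the other effector T-box factor, did not share this pattern. Its intensity was 81.3, 44.8 and 48.1 in ABC, 30.2, 49.01 and 27.4 in FO, 114, 62.5 and 20.7 in old B1 and 24.4, 25.1 and 29.0 in young B1, where the median probe set of an array read 44.01 to 49.17. Old ABC overlapped FO and old B1, and the widest spread was inside old B1. The difference between ABC and FO was 0.70 ± 0.51 (95% interval -0.43 to 1.84, limma adjusted p = 0.532), and that between ABC and old B1 was 0.08 ± 0.51 (-1.05 to 1.22, limma adjusted p = 0.940). The NK gene sums on arrays 1 to 3 were 4047, 1797 and 2253 in ABC, 1052, 1717 and 986 in FO, 2301, 1707 and 432 in old B1 and 1013, 1167 and 1329 in young B1. Within each of the 4 groups the arrays had the same order by Eomes as by NK sum, and the part of NK cells in the Eomes level was not tested. Without old B1 replicate 3, Eomes was called higher in old B1 than in FO (1.30, limma adjusted p = 0.0199, with 0.487 on all arrays), and with array weights it was called higher in ABC than in FO (1.17, limma adjusted p = 0.0148), though not without both arrays that stand apart (0.96, limma adjusted p = 0.0535). The second Eomes probe set was called in none of the 4 comparisons either. Of 13 further T-box genes measured, limma called 0 in any of the 4 comparisons, with 0, 0, 1 and 2 of them at an unadjusted p under 0.05, and between 5 and 7 of them lay under the 25th percentile on every array of a group.

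Zeb2 was high in ABC, intermediate in both B1 groups and low in FO. Its intensity was 2181, 2860 and 2321 in old ABC and 545, 574 and 704 in old FO. It was 1053, 1159 and 1612 in old B1 and 1103, 1187 and 1330 in young B1. The ABC arrays lay above all 9 others, the FO arrays lay below all others, and the B1 groups overlapped. Mean log2 levels were 11.25 ± 0.20, 9.24 ± 0.20, 10.29 ± 0.32 and 10.23 ± 0.14 in ABC, FO, old B1 and young B1. Zeb2 was 4.04-fold higher in ABC than in FO (2.01 ± 0.18, limma adjusted p = 5.14e-05), higher in ABC than in old B1 (0.96 ± 0.18, limma adjusted p = 0.00501) and higher in old B1 than in FO (1.05 ± 0.18, limma adjusted p = 0.00226). Zeb2 thus separated B1 from FO in the direction opposite to Tbx21. Macrophages express Zeb2, and the macrophage gene sums were higher in ABC and in B1 than in FO. From array 1 to array 3 these sums were 18159, 16213 and 17003 in ABC, 1192, 1667 and 3122 in FO, 32982, 31063 and 12451 in old B1 and 16579, 21231 and 28524 in young B1. Within FO and within young B1 the arrays had the same order by Zeb2 as by macrophage sum, and within ABC and within old B1 the opposite order. The part of macrophages in the Zeb2 differences was not tested.

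Zeb2 has 5 probe sets, and all 5 were higher in ABC, by 2.01 to 2.87 against FO and by 0.96 to 2.18 against old B1. Each of those differences passed an adjusted p of 0.05 over all probe sets in the table. The brightest set, used for the gene, gave the smallest of both ranges. Against FO, 3 of the 5 were called higher in old B1. The set with the largest variance was not (0.34, limma adjusted p = 0.671).

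Zeb1 moved a short way in the other direction. It read 2334, 1749 and 2302 in ABC, 3018, 2791 and 2988 in FO, 3353, 3335 and 2929 in old B1 and 3425, 3249 and 3342 in young B1. The ABC arrays were the lowest of the 12, the lowest being replicate 2, which had the highest Zeb2. Zeb1 fell by 0.47 ± 0.12 in ABC against FO (limma adjusted p = 0.0328) and by 0.60 ± 0.12 against old B1 (limma adjusted p = 0.00826). The call against FO is not secure: it was lost without ABC replicate 2 (-0.34, limma adjusted p = 0.0898), without FO replicate 1, 2 or 3 (adjusted p = 0.105, 0.0549 and 0.105), without any 1 of the young B1 arrays (0.0530 to 0.0559), with those groups fitted alone (0.0903) and over all probe sets (0.0548). Against old B1 the call was lost with the mean of all Zeb1 sets (-0.32, limma adjusted p = 0.394), with the set of largest variance (-0.28, limma adjusted p = 0.827) and with those groups fitted alone (0.0940). The first of these alternatives also ended the call against FO (-0.40, limma adjusted p = 0.360), as did the second (-0.32, limma adjusted p = 0.888). Among the other 3 Zeb1 probe sets, 1 also fell against FO, by 0.90 ± 0.16 (limma adjusted p = 0.00642 over all probe sets). Another was variable (-0.32 ± 0.64), and the last read 3.99 to 5.31 on every array. Zeb1 in old B1 differed from that in FO by 0.13 ± 0.12 (95% interval -0.14 to 0.40) and was not called.

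**Figure D3:**
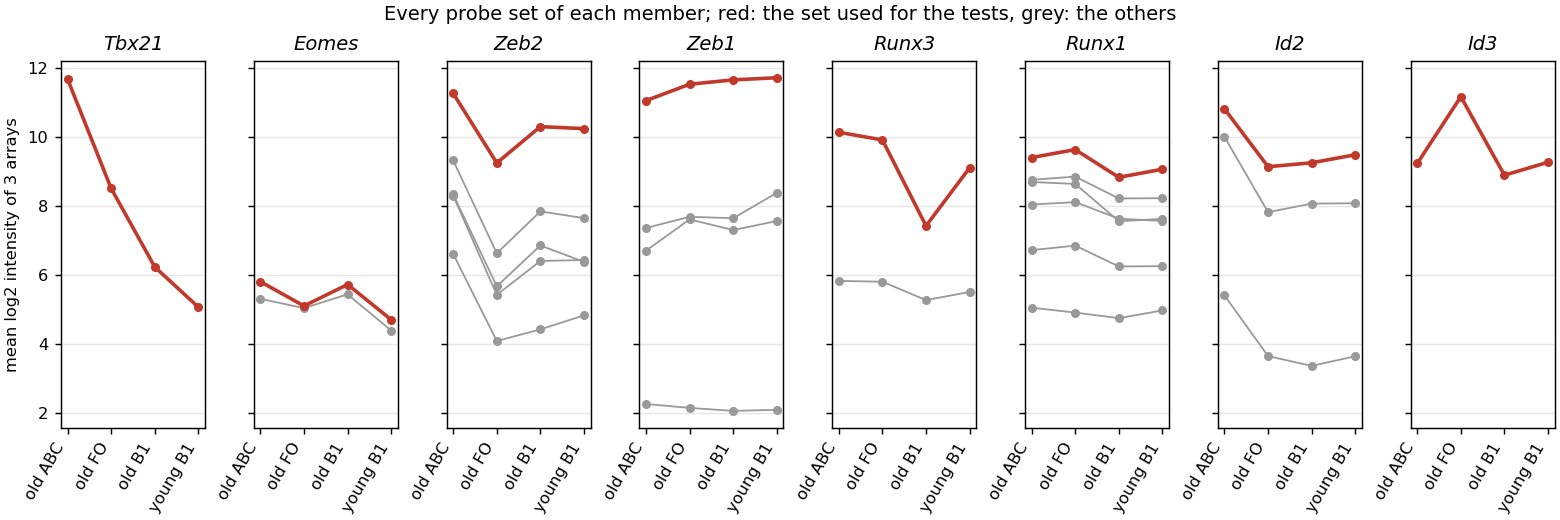
Mean log2 intensity of the 3 arrays of each group (vertical axis) for all 24 probe sets of the 8 members, the set used for the tests in red and the others in grey. The 5 Zeb2 sets and the 3 Id2 sets share the peak in old ABC. The second Runx3 set is dim, and its group means span 0.56 log2 units, against 2.71 for the set used.

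Runx3 did not separate ABC from FO. Its intensity was 1128, 945 and 1312 in ABC, 903, 1071 and 911 in FO, 283, 273 and 64.8 in old B1 and 538, 553 and 553 in young B1. The splenic groups overlapped, all B1 arrays lay below them, and old B1 lay below young B1 with 1 array far under the others. The difference between ABC and FO was 0.22 ± 0.45 (95% interval -0.78 to 1.23, limma adjusted p = 0.875). Runx3 was higher in ABC than in old B1 by 2.71 ± 0.45 (limma adjusted p = 0.00272) and lower in old B1 than in FO by -2.49 ± 0.45 (limma adjusted p = 0.00355). The spread of old B1, an SD of 1.21, came from replicate 3, and without it the differences were 2.01 and -1.78 (limma adjusted p = 8.13e-06 and 1.06e-05). With old B1 and FO fitted alone, the adjusted p was 0.0581. The second, dim probe set differed in the same directions, by 0.56 ± 0.16 and -0.53 ± 0.16, and was not called over all probe sets (limma adjusted p = 0.0670 and 0.0642).

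Runx1 also fell in B1 cells, by less. It read 671, 717 and 635 in ABC, 739, 828 and 806 in FO, 477, 490 and 398 in old B1 and 523, 556 and 521 in young B1. On this probe set none of the groups overlapped, and the order was FO, ABC, young B1 and old B1. Of the 6 Runx1 sets, only 1 separated ABC from FO without overlap, and 2 read higher in ABC. Old and young B1 were also separated by only 1 of the 6. Runx1 was lower in old B1 than in FO by -0.80 ± 0.11 (limma adjusted p = 0.000470) and higher in ABC than in old B1 by 0.57 ± 0.11 (limma adjusted p = 0.00498). Between ABC and FO the difference was -0.23 ± 0.11 (95% interval -0.46 to 0.0039, limma adjusted p = 0.256), which was called with array weights (-0.24, limma adjusted p = 0.0405). All 6 Runx1 probe sets were lower in old B1 than in FO, by -0.16 to -1.08, and 3 of them were called over all probe sets.

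Against FO, Id2 rose and Id3 fell in ABC. Id2 read 1729, 1999 and 1658 in ABC, 403, 573 and 762 in FO, 856, 809 and 322 in old B1 and 644, 693 and 811 in young B1. The ABC arrays lay above the other 9, and the other groups overlapped each other. Id2 was 3.19-fold higher in ABC than in FO (1.68 ± 0.35, limma adjusted p = 0.0108) and 2.95-fold higher than in old B1 (1.56 ± 0.35, limma adjusted p = 0.0131, and 0.0537 without ABC replicate 2). Between old B1 and FO it differed by 0.11 ± 0.35 (95% interval -0.65 to 0.88, limma adjusted p = 0.873). All 3 Id2 probe sets were called higher in ABC over all probe sets, by 1.68 to 2.18 against FO and by 1.56 to 2.04 against old B1.

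Id3 was the follicular member of the pair. Its single probe set read 1017, 403 and 522 in ABC and 2659, 1679 and 2662 in FO. In old B1 it read 606, 710 and 246, and in young B1 533, 757 and 572. All FO arrays lay above the other 9, and the remaining groups overlapped. Id3 fell by 1.93 ± 0.43 in ABC against FO (limma adjusted p = 0.0154) and by 2.27 ± 0.43 in old B1 against FO (limma adjusted p = 0.00426). Leaving out ABC replicate 2 (-1.65, limma adjusted p = 0.0648) or 3 (-1.83, 0.0603) ended the call in ABC, as did leaving out replicate 1 or 3 of FO (-1.82, 0.0630 in both cases). Against old B1, Id3 in ABC differed by 0.34 ± 0.43 (95% interval -0.61 to 1.28, limma adjusted p = 0.669).

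Relatives were then set against each other within each array, which removes any shift common to an array. The size of such a ratio depends on the probe sets, and only its difference between groups is read. The log2 ratio of Id2 to Id3 was 0.77, 2.31 and 1.67 in ABC and -2.72, -1.55 and -1.80 in FO, so the balance of the inhibitors of E proteins differed by 3.61 ± 0.57 (SE between arrays). That of Zeb2 to Zeb1 was -0.10, 0.71 and 0.01 in ABC and -2.47, -2.28 and -2.08 in FO, a difference of 2.49 ± 0.28. That of Tbx21 to Eomes differed by 2.46 ± 0.51 and that of Runx3 to Runx1 by 0.45 ± 0.20. In all 4 pairs the ABC and FO arrays did not overlap. Each pair holds a member that did not overlap there by itself, so the ratios are not separate support. The share of other gene pairs without overlap was not counted. Each of the 4 ratios had p = 0.1 in a 2-sided exact permutation test, the smallest that 3 arrays against 3 allow. Adjusted over the 16 tests of 4 pairs in 4 comparisons it was 0.123, so no ratio could pass 0.05. Against old B1, the Zeb2 to Zeb1 ratio was higher in ABC by 1.56 ± 0.36 and the Id2 to Id3 ratio by 1.22 ± 0.46, again without overlap (exact permutation p = 0.1). Zeb2, Zeb1 and Id2 did not overlap there by themselves.

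**Figure D4:**
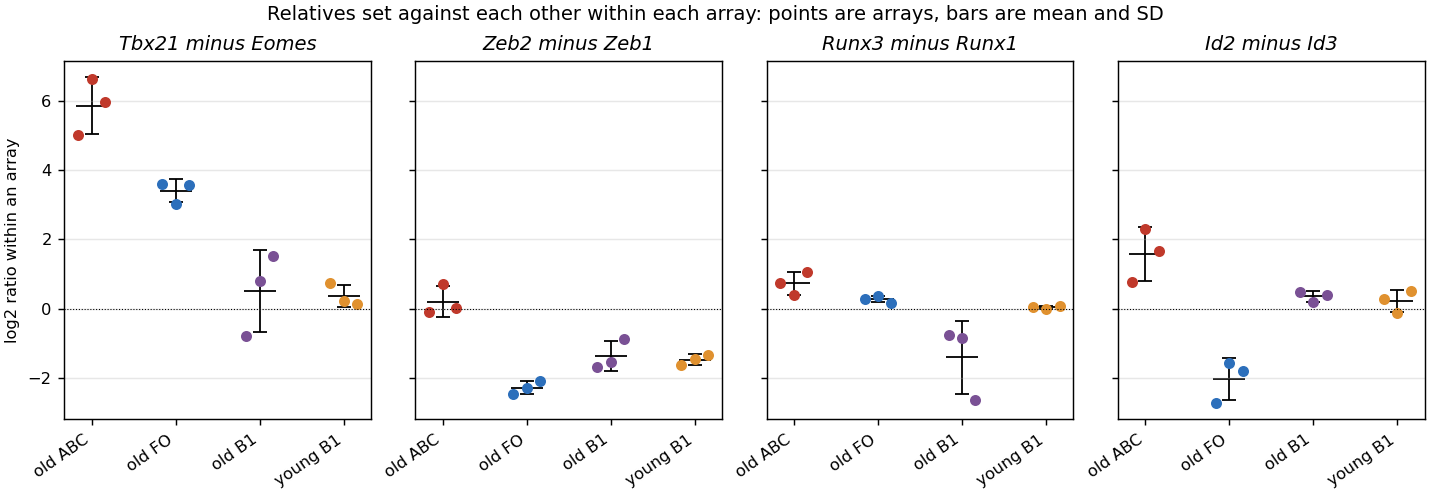
Log2 ratio of one relative to the other within an array (vertical axis) for the 4 pairs, by group, with mean and SD. The Id2 to Id3 ratio lies between 0.77 and 2.31 in old ABC and between -2.72 and -1.55 in old FO, and only the Runx3 to Runx1 ratio separates old from young B1.

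Age in B1 cells was compared within the peritoneal cavity, the single contrast of age in the series. Tbx21 was higher in old than in young B1 by 1.16 ± 0.25 on the log2 scale (95% interval 0.61 to 1.72, limma adjusted p = 0.135), with every old array above every young one. The result was not called on all arrays but was called without old B1 replicate 3 (1.33, limma adjusted p = 0.0469) and with array weights (1.33, limma adjusted p = 0.0116). Without both arrays that stand apart it was again not called (1.33, limma adjusted p = 0.0542). Even so, the highest old B1 value, 108, was far below the lowest FO value, 327. Runx3 was lower in old B1 by -1.68 ± 0.45 (95% interval -2.68 to -0.68, limma adjusted p = 0.262), and without replicate 3 by -0.98 (limma adjusted p = 0.0108). That array decides the Runx3 call and moves its size by more than 1.5 times. The second, dim Runx3 probe set differed by -0.24 ± 0.16, with old and young arrays overlapping (limma adjusted p = 0.746 over all probe sets). Runx1 differed by -0.23 ± 0.11 (limma adjusted p = 0.659). Eomes differed by 1.02 ± 0.51 (limma adjusted p = 0.685), and was called without both arrays that stand apart (1.69, limma adjusted p = 0.0300) and with array weights (1.61, limma adjusted p = 0.0243), but not without old B1 replicate 3 alone (1.69, limma adjusted p = 0.0506). The difference was 0.06 ± 0.18 for Zeb2 (95% interval -0.34 to 0.45), -0.06 ± 0.12 for Zeb1 (-0.33 to 0.21), -0.23 ± 0.35 for Id2 (-1.0001 to 0.53) and -0.37 ± 0.43 for Id3 (-1.32 to 0.57). The intervals of Zeb2 and Zeb1 were the narrowest of these 4, and those of Id2 and Id3 allow a 2-fold fall.

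The genes whose profile over the 12 arrays lay nearest to each member were taken from 9790 genes at or above the median level, by the root mean square difference of the log2 profiles after each was centred on its own mean. For Tbx21 they were Fas, a death receptor (0.65), Cxcl10, a chemokine (0.75), and Slc40a1, the iron exporter ferroportin (0.76). For Zeb2 they were Pvr, an adhesion receptor (0.23), Pycard, an inflammasome adaptor (0.26), and Tmcc3 (0.26). Fas is itself one of the ABC markers. For Runx3 the nearest were Tspan3, a tetraspanin (0.29), Armcx3 (0.34) and Lrrc75a (0.35). For Id2 they were Ipcef1 (0.26), Gkap1 (0.28) and Ap1s2, a clathrin adaptor subunit (0.29). Id3 was nearest to Pxk (0.22), Myof, a ferlin (0.27), and Sh2d2a, a signalling adaptor (0.30). Eomes was nearest to Bcl11b, a T cell factor (0.47), St3gal6, a sialyltransferase (0.48), and Ttc8 (0.48). Tbx21 thus had no neighbour as close as those of Zeb2, Id2 or Id3, on a profile that spans 6.60 log2 units.

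Of 15 genes of the signals that induce Tbx21, limma called 0 higher and 1 lower in ABC than in FO, with a median difference of -0.08 against -0.03 over all genes. Over the alternatives these counts ran from 0 to 4 and from 0 to 3. The gene called was Jak2, a kinase of the interferon-gamma and interleukin-12 receptors (-0.76 ± 0.21, limma adjusted p = 0.0453). Tlr7, a sensor of single-stranded RNA, read 1784, 2728 and 1150.3 in ABC and 1154, 704 and 968 in FO, a difference of 0.94 ± 0.29 that was not called (limma adjusted p = 0.0757). Il21r, the interleukin-21 receptor, differed by -0.55 ± 0.16 and Stat4, the factor downstream of interleukin-12, by -0.93 ± 0.65, neither called. Against old B1, 5 of the 15 were higher in ABC and 1 lower (median 0.40 against 0.02 over all genes), among them Stat4 (3.13 ± 0.65, limma adjusted p = 0.00961) and Il21r (1.78 ± 0.16, limma adjusted p = 4.60e-05). In old B1 against FO, 0 were higher and 5 lower, Stat4 by -4.06 ± 0.65 and Il21r by -2.33 ± 0.16. Stat4, like Runx3, was lowest in old B1 replicate 3 (33.1, against 316 and 230).

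Of 19 genes bound or activated by T-bet, 8 were called higher and 0 lower in ABC than in FO (6 to 12 higher over the alternatives), with a median difference of 1.22 against -0.03 over all genes. S1pr5, a receptor for sphingosine 1-phosphate and a T-bet target in NK cells, read 967, 1608 and 887 in ABC and 23.5, 27.1 and 30.0 in FO (5.38 ± 0.40, limma adjusted p = 1.67e-05). Itgax, which encodes CD11c and may have been a sort marker, read 2926, 5012 and 2859.6 against 25.4, 60.6 and 124 (5.92 ± 0.63, limma adjusted p = 0.000177). In both genes, as in Tbx21, ABC replicate 2 was the highest of the 12 arrays. Cd80, a costimulatory ligand, was higher by 4.38 ± 0.26 (limma adjusted p = 4.75e-06) and Il18rap, a chain of the interleukin-18 receptor, by 2.32 ± 0.25 (limma adjusted p = 0.000177). Among targets best known from T and NK cells, Cxcr3, a chemokine receptor, differed by 1.22 ± 0.36 (limma adjusted p = 0.0572) and Ifng, interferon-gamma, by 1.33 ± 0.55 (limma adjusted p = 0.198), neither called against FO.

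Against old B1, 10 of the 19 were called higher in ABC and 0 lower (median 1.24 against 0.02). There Cxcr3 (2.90 ± 0.36, limma adjusted p = 0.000430) and Ifng (2.89 ± 0.55, limma adjusted p = 0.00594) were higher, and Cd80 differed by 0.39 ± 0.26 and was not called. Cd80 read 1145, 1166 and 562 in old B1 and 1059.8, 1260.4 and 1265 in ABC, whereas Tbx21 was low in all B1 arrays. In old B1 against FO, 3 of the 19 were higher and 2 lower. The list shares Itgax, Cd80 and Cxcr3 with the ABC markers, and Gzmb, Nkg7 and Prf1 with the NK genes and Prdm1 with the plasma cell genes, and the part of NK cells in its counts was not tested.

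**Figure D5:**
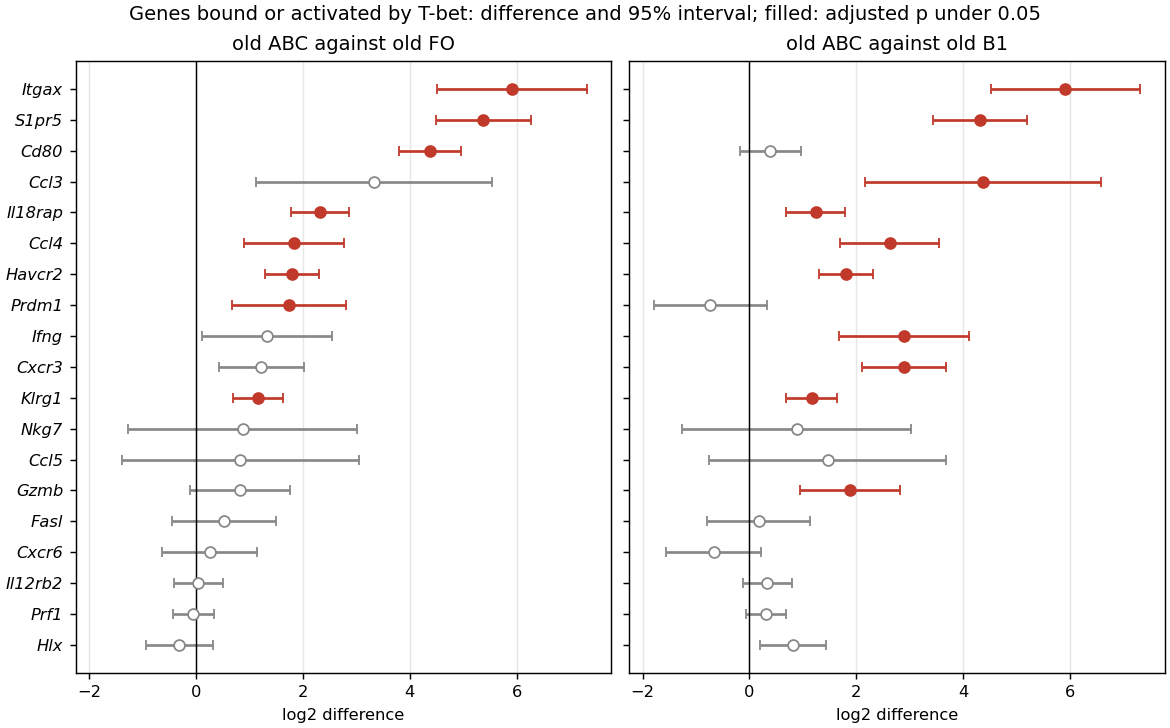
Log2 difference (horizontal axis) with its 95% interval for the 19 measured genes bound or activated by T-bet, old ABC against old FO on the left and against old B1 on the right, filled where the adjusted p was under 0.05. Itgax and S1pr5 lie above 4 in both panels, while Cd80 is separated from FO alone.

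Of 10 factors that oppose the T-bet or Zeb2 programmes, 0 were higher and 1 was lower in ABC than in FO (1 to 6 lower over the alternatives). It was Lef1, a factor of early lymphocytes (-1.68 ± 0.20, limma adjusted p = 0.000310). The median of the 10 was -0.48 against -0.03 over all genes, of which 7.12% were called higher and 2.84% lower. Bcl6, the repressor of the germinal centre programme, differed by -0.68 ± 0.23, Bach2, which holds back effector and plasma cell genes, by -0.64 ± 0.27 and Foxo1 by -0.33 ± 0.13, none called (limma adjusted p = 0.108, 0.204 and 0.184). In old B1 against FO, 0 were higher and 6 lower, Bcl6 by -2.28 ± 0.23, Bach2 by -1.68 ± 0.27 and Satb1, a chromatin organiser, by -4.21 ± 0.57. ABC thus kept more Bcl6 (1.61 ± 0.23) and Bach2 (1.04 ± 0.27) than old B1, where 3 of the 10 were higher and 1, Foxp1, was lower (-0.47 ± 0.10).

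Of 5 genes for the E proteins that Id2 and Id3 bind and for the other Id proteins, 1 was called higher in ABC than in FO and 0 lower: Tcf4, which encodes E2-2 and read 6452, 6147 and 7693 in ABC and 4475, 4936 and 4299 in FO (0.56 ± 0.11, limma adjusted p = 0.00656). Tcf3, which encodes E2A, differed by 0.04 ± 0.18 and was not called. The median of the 5 was 0.04 against -0.03 over all genes, of which 7.12% were called higher and 2.84% lower. Tcf4 was also higher in old B1 than in FO (0.49 ± 0.11, limma adjusted p = 0.00904), the 1 of 5 called there, and limma called 0 of the 5 between ABC and old B1 (0 at an unadjusted p under 0.05).

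Of 12 genes that ZEB factors repress or use as corepressors, 0 were higher and 1 was lower in ABC than in FO (median -0.20, with 1 to 3 lower over the alternatives): Crb3, a polarity protein (-1.82 ± 0.29, limma adjusted p = 0.00221). Over all genes, 7.12% were called higher and 2.84% lower there, with a median of -0.03. Cdh1, E-cadherin, read 69.8, 55.6 and 25.8 in ABC and 14.7, 8.82 and 11.6 in FO, a difference of 2.02 ± 0.86 that was not called (limma adjusted p = 0.214). Mef2b, a factor of germinal centre B cells, differed by -0.89 ± 0.40 and was not called. Against old B1, 1 of the 12 was higher in ABC, Smad7 (3.31 ± 0.25), and 1 lower, Epcam, an epithelial adhesion protein (-3.09 ± 0.41). In old B1 against FO, 1 was higher and 3 were lower.

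Of 9 RUNX partners and cofactors, 1 was higher in ABC than in FO (0 in 7 of 28 alternatives), Cbfa2t3, a corepressor (0.79 ± 0.17, limma adjusted p = 0.0147), and 1 lower, Tle1, a Groucho corepressor (-1.82 ± 0.27, limma adjusted p = 0.00135). The median of the 9 was -0.18 against -0.03 over all genes, of which 7.12% were called higher and 2.84% lower. The same counts, 1 higher and 1 lower, held in old B1 against FO, with 0.88 ± 0.17 for Cbfa2t3 and -2.23 ± 0.27 for Tle1. Cbfb, the shared partner, read 4034 to 4261 in ABC, 4103 to 4891 in FO and 4061 to 4604 in old B1, and differed between ABC and FO by -0.10 ± 0.10 (not called). Limma called 0 of the 9 between ABC and old B1 (2 at an unadjusted p under 0.05). Between old and young B1, limma called 0 genes of these lists, T-box genes included. At an unadjusted p under 0.05 stood 4 of the inducing genes, 2 of the opposing factors, 2 of the ZEB list, 2 T-box genes and none of the other lists.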

How the data were processed

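RNA of sorted B cells was measured on 12 one-colour Affymetrix mouse arrays. The values the authors deposited are intensities on a linear scale, 3.00 to 22068. RMA and affy are named per the submitters' processing notes, without version or role. The steps of background correction and summarisation are not stated there. RNA came from a picoPure kit and biotin cRNA from the standard Affymetrix protocol, per the labels. Probe sets were named from GEO's platform annotation: 34945 of 45037 carried 1 symbol, 932 several and 9160 none, and the last 2 kinds were left out. A gene took its brightest single-symbol probe set.

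Log2 intensities of all arrays were fitted with 4 group means in limma 3.58.1 (R 4.3.3, lmFit and eBayes), which left 8 residual degrees of freedom beside a prior of 2.37. P-values were adjusted over all genes. The number of arrays limits the precision. The procedure was tested on simulated data. Within-array ratios were compared by exact permutation, and motifs were counted in RefSeq windows (GRCm38.p6). Alternatives were other limma settings, array weights, the compared groups alone, a replicate block, other normalizations, probe set rules, a filter on dim genes, an offset of 16, a threshold of 0.01, and left-out arrays. Same-numbered arrays of different groups deviated together (correlation over 0.1) in 3 of 18 pairs, and the numbers were not taken to pair samples. With 3 arrays per group, 2 of them from groups with an array that stands apart, this check cannot exclude pairing.

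The members and the gene lists were chosen with earlier results of these data known. Beside the members, the text names up to 4 genes of lowest p in a pathway list in ABC against FO, up to 2 called genes of another cell type, the 3 genes nearest in profile to a member spanning at least 1 log2 unit, and a fixed set of known targets and regulators. Prf1, Nkg7, Gzmb and Cd80 are also named as members of more than 1 list, and list genes called outside ABC against FO were named after their values were seen.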

Additional observations from a re-analysis of the deposited data

How the results depend on the processing

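Over 28 alternatives, 819 of 896 member differences kept direction and side of the threshold, 28 lost a call, 12 gained one and 37 changed sign, all of the last among differences not called on all arrays. Between ABC and FO, 2 members passed an adjusted p of 0.01, and 3 to 5 were called without single arrays. Of all 18193 genes, 990 passed 0.01 there, and 1267 to 2837 were called without single arrays. Between ABC and old B1, 1 member was called with those groups alone, beside 1062 of all genes. Between old and young B1, 3 members were called with array weights, 2 without both arrays that stand apart and 0 to 2 without single arrays. Of all genes, 316, 208 and 17 to 165 were called under these settings. With a replicate block, 5, 6, 5 and 0 members were called in the 4 comparisons, the same counts as without it. Of all genes, 1543, 2034, 2570 and 32 were called with the block. The labels do not say whether equal numbers mark paired samples. Each array's 75th percentile as a covariate turned Runx3 to -0.0098 between ABC and FO, Eomes to -0.44 and Id3 to -0.18 between ABC and old B1, and Zeb2 to -0.11, Zeb1 to 0.028, Id2 to 0.11 and Id3 to 0.13 between old and young B1. Without both arrays that stand apart, Eomes became -0.59 and Id3 -0.13 between ABC and old B1, and Zeb2 -0.12, Zeb1 0.0025, Id2 0.22 and Id3 0.10 between old and young B1. Array weights gave -0.30 for Eomes between ABC and old B1, and -0.14 for Zeb2, 0.14 for Id2 and 0.052 for Id3 between old and young B1. The probe set of largest variance gave 0.058 for Runx1 between ABC and FO, -0.040 for Zeb1 between old B1 and FO and -0.41 for Zeb2 between old and young B1. The mean of all sets gave -0.023 for Eomes between ABC and old B1 and -0.077 for Zeb1 between old B1 and FO, where the most significant set gave -0.31 for Zeb1 and -0.28 for Id2, and -0.13 for Eomes between ABC and old B1. Without single arrays, Eomes ran from -0.59 to 0.64 and Id3 from -0.13 to 0.63 between ABC and old B1, Id2 from -0.14 to 0.57 between old B1 and FO, and Zeb2 from -0.12 to 0.18, Zeb1 from -0.095 to 0.0025, Id2 from -0.48 to 0.22 and Id3 from -0.67 to 0.10 between old and young B1. The cause was not tested. Of all genes called between ABC and FO, 71.5% were higher in ABC, and 59.6% with each array centred on its median.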
